A study of Mus musculus with 12 samples.

Results

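Genes of fatty acid metabolism and of the peroxisome were followed in laser-captured spinal cord astrocytes of SOD1 G93A mice, a transgenic model of amyotrophic lateral sclerosis (ALS), and of non-transgenic (NTg) littermates. Members were all genes with a probe set of a single symbol that begins with Acsl, Acsbg, Elovl, Fads, Acox, Abcd, Fabp or Pex and a number, together with *Scd1*, *Scd2*, *Fasn*, *Acaca*, *Acacb*, *Hacd1*, *Hacd2*, *Hacd3* and *Ppara*. The rule also took *Acoxl*, a relative of the acyl-CoA oxidases, and *Pex5l*, a *Pex5* relative that regulates HCN ion channels. This gave 57 of the 18193 genes with such a probe set, on 122 probe sets, and each gene was read from its brightest one. The values came from 12 arrays, 1 for each male mouse, with 3 mice in each of 4 groups. Each genotype was sampled at 90 days, when the SOD1 G93A mice are symptomatic, and at 120 days, their late stage. The SOD1 G93A mice carried a human SOD1 transgene with the G93A mutation under its own promoter, which is active in all cell types, and the line, littermates included, had been bred onto the strain C57Bl/6 J Ola/Hsd. At least 1500 cells were captured from the lumbar cord of each mouse, and the authors describe the material as a mixed population with a large astrocytic component.

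Long fatty acids are used only after an acyl-CoA synthetase (Acsl, Acsbg) has joined them to coenzyme A. New ones are built by acetyl-CoA carboxylase (*Acaca*, *Acacb*) and fatty acid synthase (*Fasn*), then lengthened by the elongases (Elovl) with the dehydratases (Hacd) and desaturated by the Scd and Fads enzymes, while Fabp proteins carry them through the cytosol. Very long chains enter the peroxisome through some of the Abcd transporters, *Abcd2* among them, and are shortened there by acyl-CoA oxidases. The peroxins (Pex) import the enzymes of that organelle, and *Ppara* encodes a fatty acid receptor that switches on oxidation genes. Astrocytes both make and oxidise fatty acids, and loss of peroxisomal transport of very long chains is known for damage to myelin and axons.

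At 120 days 4 members were called different between the genotypes and at 90 days none was. *Fabp7*, the brain fatty acid-binding protein of radial glia and astrocytes, rose 5.77-fold. *Abcd2*, a peroxisomal transporter of very long-chain acyl-CoA, fell 3.44-fold. *Elovl4*, the elongase of the longest chains, fell 2.25-fold, and *Elovl6*, which lengthens C16 to C18 chains, fell 2.12-fold. The 4 acyl-CoA synthetases *Acsl3*, *Acsl4*, *Acsl5* and *Acsl6* all had lower means in late-stage SOD1 G93A mice, but none passed the test, and their lowest values came from 1 mouse.

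That mouse, replicate 3 of the late-stage SOD1 G93A group, stood apart from the other arrays. Its mean correlation with the other arrays of its group was 0.835, against 0.88 to 0.95 for the other 11 arrays, and its median deposited signal was 55.2, against 24.9 to 43.1. Late-stage values that it moved are therefore also given without it. All 16 astrocyte markers passed the filter on low signals, in accord with the labelled cell type, and so did markers of other cells. The 15 measured microglial markers summed to 2763 to 3160 signal units in late-stage NTg mice and to 16900 to 18510 in SOD1 G93A mice, and 12 of the 14 tested rose. Those of neurons summed to 27090 to 32790 and 11170 to 18060, and 6 of 14 fell while 1 rose. Astrocyte markers summed to 22030 to 26460 and 23150 to 37250, and 3 of 16 rose (*Gfap*, *Sox9* and *Aldh1l1*). Oligodendrocyte markers summed to 25150 to 32240 and 38910 to 50200, and 1 of 11 tested rose. At 90 days 5 of the 14 microglial markers had already risen, and none of the 14 neuronal ones was called. On a separate list of motor neuron markers 1 of 6 tested fell at 90 days and 1 at 120 days. In such material fewer cells of a type and less RNA per cell cannot be told apart.

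**Figure D1:**
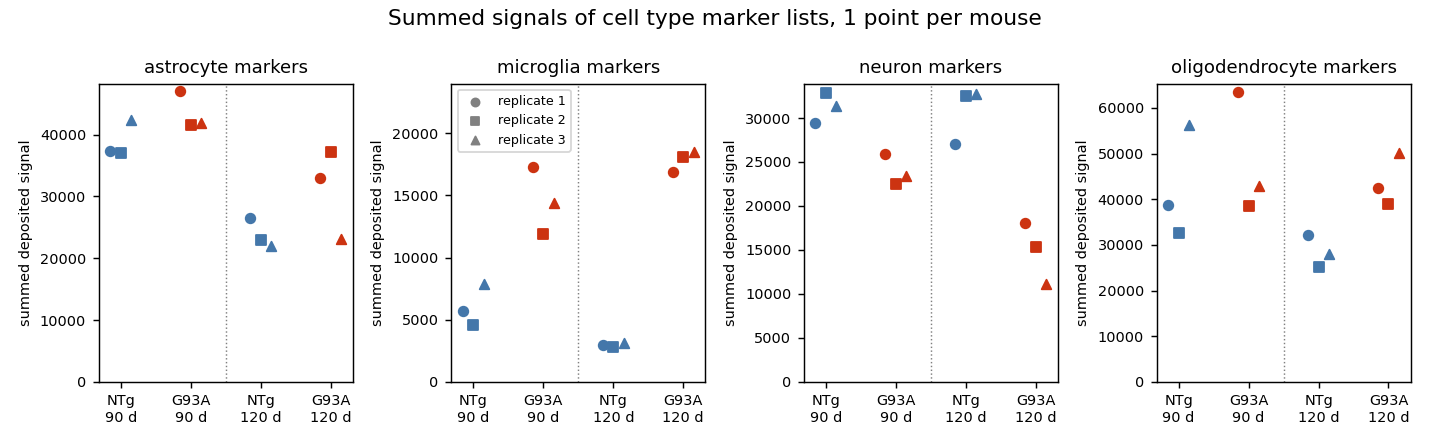
Summed deposited signals (linear axis from 0) of the marker lists of astrocytes, microglia, neurons and oligodendrocytes, 1 point for each mouse, by group and age. At 120 days the microglial sums of SOD1 G93A mice (16900 to 18510) lie above and the neuronal sums (11170 to 18060) below those of all NTg mice.

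Signals are given as log2 after an offset of 7, normalized among the 6 arrays of an age, so that a level can be set against another of the same gene and age only. The log2 fold change (log2FC) is the mean signal of SOD1 G93A minus that of NTg mice, and through the offset it understates changes of dim genes. A difference was called where its adjusted p was under 0.05 in limma over 26132 probe sets. Of the 57 members 46 passed the filter (a signal above the median of the array on at least 3 arrays), as did 12428 genes in all. The 11 members that did not were *Acox2*, *Acox3*, *Acoxl*, *Acsbg2*, *Elovl3* and 6 binding proteins, *Fabp1*, *Fabp2*, *Fabp4*, *Fabp6*, *Fabp9* and *Fabp12*, most of which are known from liver, gut, fat or testis. The acyl-CoA oxidases among the members, which catalyse the first step of peroxisomal oxidation, could therefore not be compared.

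At the symptomatic age 0 of 46 members were called in limma in either direction, where 0.185% of all genes tested were called higher and 0.0402% lower in SOD1 G93A mice. At an unadjusted p under 0.05 the count of members was also 0, against 6.24% of all genes. The log2FC values ran from -0.74 (*Pex11g*) to 0.83 (*Fads3*), with a median of 0.05 beside 0.021 over all genes. In 1 member (*Hacd2*) the 3 SOD1 G93A mice were above all 3 NTg mice and in 2 (*Elovl4* and *Pex11g*) below them, that is 2.17% and 4.35% of members, against 6.94% and 5.45% of all genes.

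At the late stage 1 member rose and 3 fell, which is 2.17% and 6.52% of the 46, against 4.12% and 4.47% of all genes, so the share of members called was near that of genes at large. With the threshold of the study, a fold of 2 and an unadjusted p under 0.05, 2 were higher (4.35%, against 5.53% of all genes) and 9 were lower (19.6%, against 7.68%). Without replicate 3 of the SOD1 G93A group that second count was 1, against 4.92% of all genes. The SOD1 G93A mice were all above the NTg mice in 8 members (17.4%, against 15.2%) and all below in 12 (26.1%, against 20.4%). The median log2FC of the members was -0.32 beside -0.083 over all genes, and -0.051 beside -0.038 without replicate 3.

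**Figure D2:**
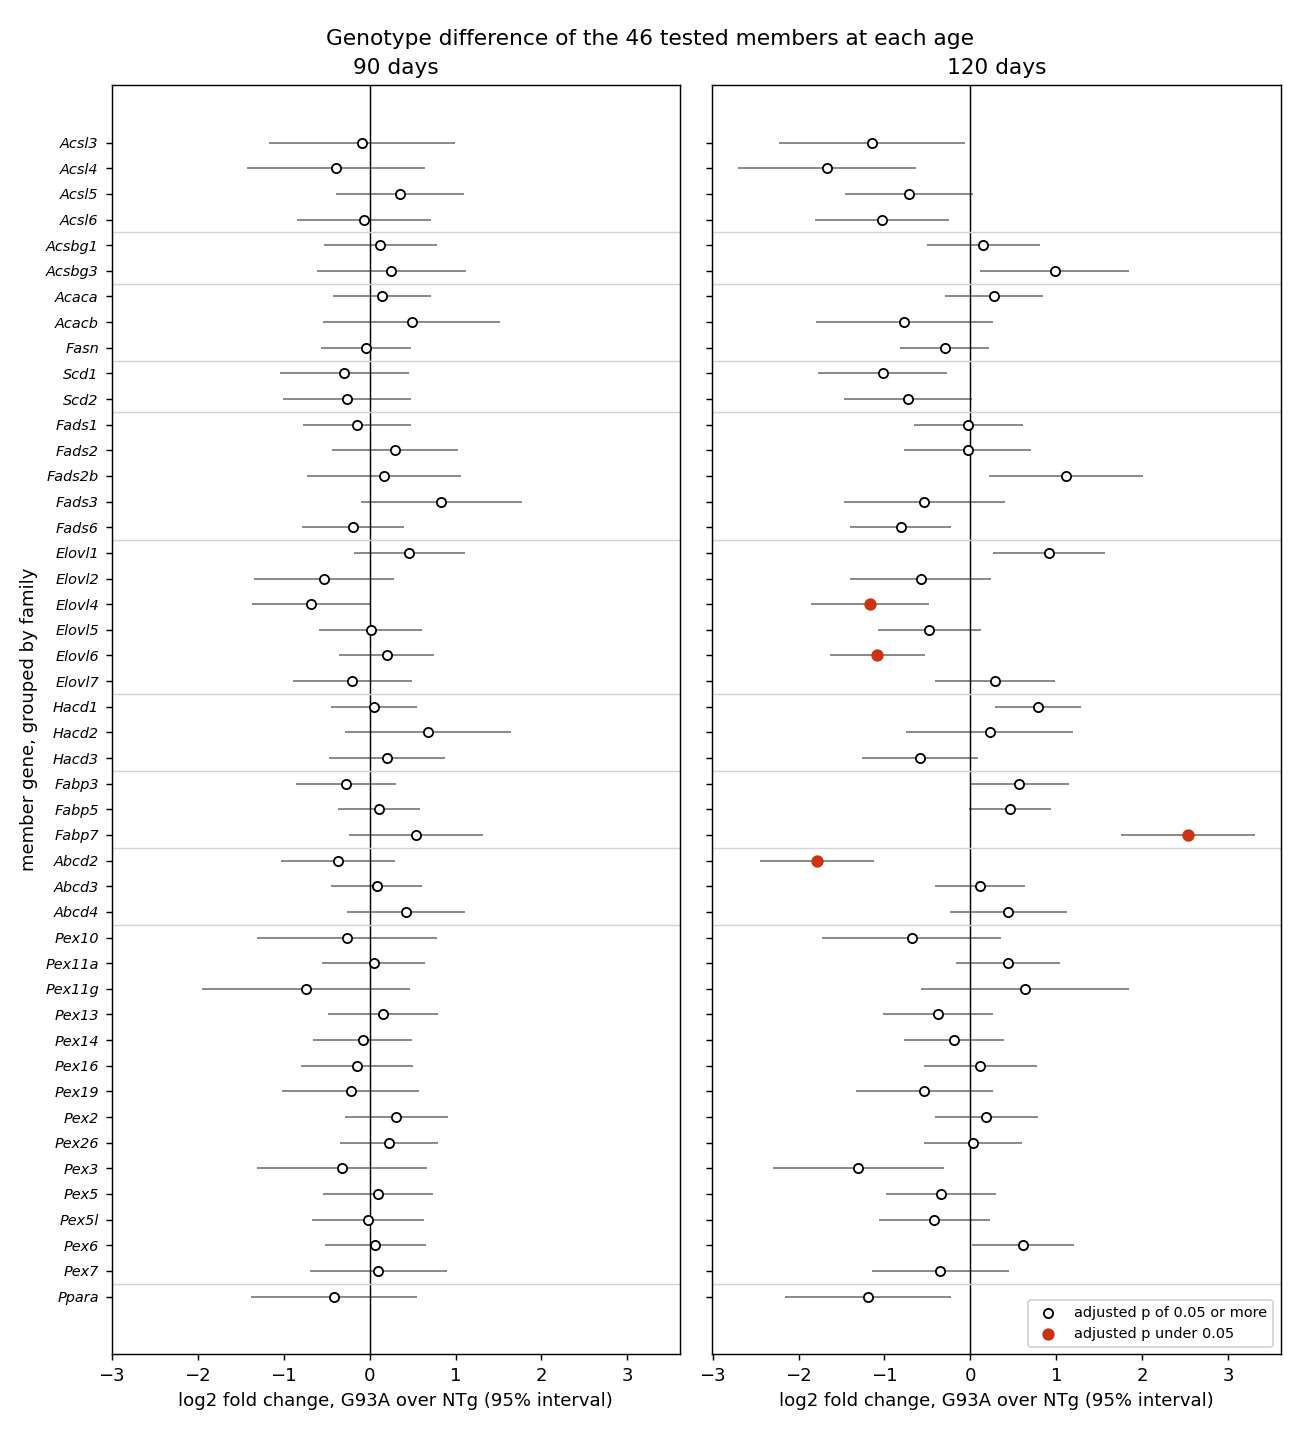
Log2FC between the genotypes (horizontal axis) for the 46 tested members, grouped by family, at 90 days (left) and 120 days (right). Points are limma estimates, lines their 95% intervals, and filled points have an adjusted p under 0.05, which *Fabp7*, *Abcd2*, *Elovl4* and *Elovl6* have at 120 days.

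The binding protein *Fabp7* (probe set 1450779_at) had the largest difference of any member. At 120 days its signals were 6.66, 6.90 and 6.80 in the NTg mice and 8.69, 9.66 and 9.60 in the SOD1 G93A mice. The groups did not overlap, and the lowest SOD1 G93A mouse was above the highest NTg mouse by more than the whole range within either group. The log2FC was 2.53 (standard error 0.36, 95% interval 1.75 to 3.31, limma adjusted p = 0.00177), and without replicate 3 it was 2.46 (adjusted p = 0.00527). At 90 days the signals were 8.44, 8.41 and 7.50 in NTg mice and 8.36, 9.31 and 8.30 in SOD1 G93A mice, which overlap, with a log2FC of 0.54 (adjusted p = 1.00). *Gfap*, the filament protein of reactive astrocytes, rose at 120 days as well (log2FC 4.79), as did the microglial markers, and their part in the rise of *Fabp7* was not tested.

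The other binding proteins that passed the filter had smaller estimates. *Fabp5*, which is widespread in neural cells and skin, had signals of 12.61, 12.09 and 12.38 in late-stage NTg mice and 12.94, 12.80 and 12.72 in SOD1 G93A mice. These do not overlap, but the log2FC of 0.46 (95% interval -0.021 to 0.94) did not pass (limma adjusted p = 0.213). Its dimmer probe set 1416022_at had 1.01 (adjusted p = 0.054), and the mean of both was called (0.74, adjusted p = 0.0436). *Fabp3*, known from heart muscle and neurons, had a log2FC of 0.57 (adjusted p = 0.201).

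The 250 bases before the start of the called genes are shown for the gene that rose and for those that fell. They are from RefSeq (GRCm38.p6), 5′ to 3′ on the strand of the gene, and capitals mark any of 4 motifs searched on both strands. These were the CCAAT box (CCAAT), the element of factor NF-Y, which binds beside SREBP at many lipid genes, the GC box (GGGCGG), which Sp1 binds, the E-box CACGTG of carbohydrate response factors, and the sterol regulatory element TCACNCCAC. No entry was at hand for *Abcd2*.
Fabp7 (chr10:57784673-57784922, plus strand): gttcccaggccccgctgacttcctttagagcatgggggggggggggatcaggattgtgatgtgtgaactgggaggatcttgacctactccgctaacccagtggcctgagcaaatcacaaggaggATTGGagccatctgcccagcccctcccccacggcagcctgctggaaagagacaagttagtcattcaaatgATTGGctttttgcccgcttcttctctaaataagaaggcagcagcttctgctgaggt
Elovl4 (chr9:83806306-83806555, minus strand): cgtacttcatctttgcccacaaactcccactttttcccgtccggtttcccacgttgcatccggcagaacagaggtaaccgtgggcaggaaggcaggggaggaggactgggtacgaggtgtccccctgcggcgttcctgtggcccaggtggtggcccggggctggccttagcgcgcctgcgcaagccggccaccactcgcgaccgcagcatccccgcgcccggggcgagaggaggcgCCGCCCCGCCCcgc
Elovl6 (chr3:129532136-129532385, plus strand): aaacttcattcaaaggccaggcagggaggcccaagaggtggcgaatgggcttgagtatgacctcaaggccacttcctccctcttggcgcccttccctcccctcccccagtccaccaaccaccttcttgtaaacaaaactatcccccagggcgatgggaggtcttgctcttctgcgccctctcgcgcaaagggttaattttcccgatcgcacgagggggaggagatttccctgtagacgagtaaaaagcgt

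*Fabp7* holds the CCAAT box at 2 places, which begin 126 and 56 bases before the start. *Elovl4* holds the GC box at 2 places that share 1 base, beginning 14 and 9 bases before the start. The window of *Elovl6* holds none of the 4 motifs. The CCAAT box was in 37.5% of the 27025 genes with a promoter in the table and in 18 of the 43 members with one (41.9%). The GC box was in 35.4% of genes and in 23 members (53.5%), and the E-box in 6.86% of genes and in 2 members (4.65%), *Elovl5* and *Hacd3*. The sterol regulatory element was in 1.22% of genes and in 1 member, *Fabp6*, which was too dim to test. These matches describe letters only.

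Of the 3 tested Abcd half-transporters 1 fell. *Abcd2* (1456812_at) had late-stage signals of 7.57, 7.79 and 7.69 in NTg mice and 5.80, 6.63 and 5.27 in SOD1 G93A mice. All 3 SOD1 G93A mice were below the NTg mice, which lay close to each other. The log2FC was -1.78 (standard error 0.31, 95% interval -2.44 to -1.12, limma adjusted p = 0.0053), and -1.54 without replicate 3 (adjusted p = 0.0108). At 90 days the signals were 7.81, 7.70 and 7.55 in NTg mice and 7.58, 7.19 and 7.20 in SOD1 G93A mice, with a log2FC of -0.36 (adjusted p = 1.00). The fall of *Abcd2* was read on 1 of its 3 tested probe sets, since 1419748_at had a late-stage log2FC of 0.017 (adjusted p = 0.989) and 1438431_at of -0.70 (adjusted p = 0.299), both at lower signals. Beside it, *Abcd3* stood at 0.11 (adjusted p = 0.807) and *Abcd4* at 0.44 (adjusted p = 0.403), or 0.14 and 0.62 without replicate 3.

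Of the 6 tested elongases 2 fell. For *Elovl6* (1417404_at) the late-stage signals were 9.21, 9.14 and 9.05 in NTg mice and 8.33, 8.11 and 7.71 in SOD1 G93A mice, with no overlap. The log2FC was -1.08 (standard error 0.26, 95% interval -1.64 to -0.53, limma adjusted p = 0.0242). The call was lost without replicate 3 of the SOD1 G93A group (-0.93, adjusted p = 0.0636) and without NTg replicate 1 (adjusted p = 0.0723), 2 (0.0961) or 3 (0.0746). Its dimmer probe set 1417403_at gave -0.68 (adjusted p = 0.11) and 1442656_at gave 0.032 (adjusted p = 0.962). *Elovl6* was not called at 90 days, when the NTg mice had 8.78, 8.76 and 8.34 and the SOD1 G93A mice 9.15, 8.75 and 8.58 (log2FC 0.20, adjusted p = 1.00).

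*Elovl4* (1424306_at) had late-stage signals of 6.71, 7.47 and 6.87 in NTg mice and 6.14, 6.23 and 5.18 in SOD1 G93A mice. These do not overlap either, but both groups were wide. The log2FC was -1.17 (standard error 0.32, 95% interval -1.85 to -0.48, limma adjusted p = 0.0424). The call was lost without replicate 3 of the SOD1 G93A group (-0.87, adjusted p = 0.107). *Elovl4* also lost it without late-stage NTg replicate 1 (adjusted p = 0.063), 2 (0.195) or 3 (0.1). Its second probe set, 1451308_at, fell too (-0.98, adjusted p = 0.0391). *Elovl4* was the elongase whose groups were apart at both ages: at 90 days the NTg mice had 7.06, 7.48 and 6.90 and the SOD1 G93A mice 6.58, 6.55 and 6.27, with a log2FC of -0.68 that did not pass (adjusted p = 0.902).

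The other elongases ran in both directions. *Elovl5*, which acts on polyunsaturated chains, had a late-stage log2FC of -0.48 (adjusted p = 0.297), and *Elovl2*, of the same pathway, -0.58 (adjusted p = 0.358). Without replicate 3 these were -0.24 and -0.19. *Elovl1*, which makes saturated very long chains, had 9.30, 9.17 and 9.0 in NTg mice and 9.92, 9.64 and 10.65 in SOD1 G93A mice, apart but not past the threshold (0.92, adjusted p = 0.0792, and 0.62 without replicate 3). It was picked after its values were seen, as was the dehydratase *Hacd1*, with NTg signals of 8.98, 8.45 and 8.82 and SOD1 G93A signals of 9.43, 9.57 and 9.63 (0.79, adjusted p = 0.0549).

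**Figure D3:**
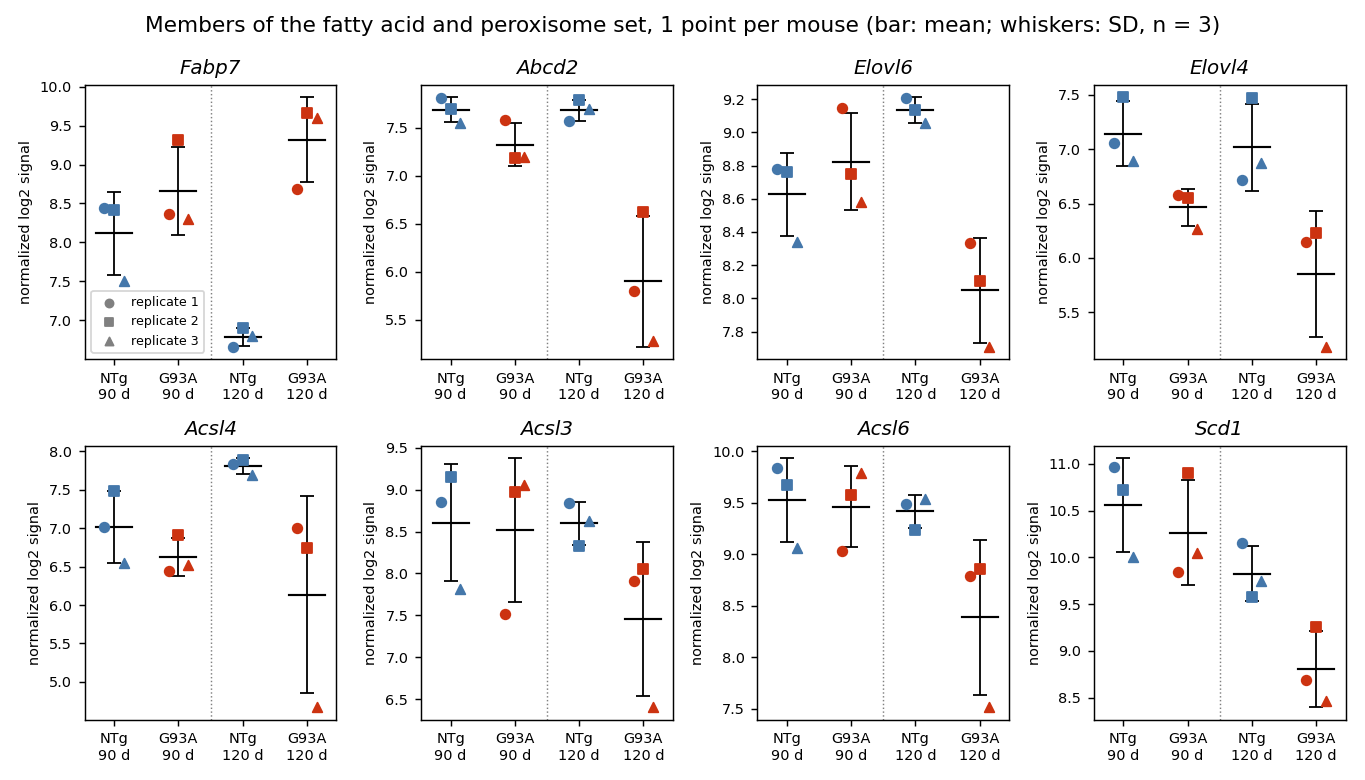
Normalized log2 signal (vertical axis, scaled separately in each panel) of 8 members in each mouse, by group, with the mean as a bar and the SD as whiskers (n = 3). Marker shape gives the replicate, levels are comparable within an age only, and the triangle of late-stage SOD1 G93A replicate 3 is the lowest point of its group in every panel but that of *Fabp7*.

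Replicate 3 set much of the late-stage pattern. Of the 27 members whose log2FC was below 0, 25 (92.6%) had their lowest signal of the 6 late-stage arrays in that mouse, against 60.3% of the 6872 genes below 0. Its signal is part of that log2FC, and without it the count below 0 was 27 as well, at a median nearer 0. Over all 46 members it held the lowest signal in 56.5%, against 36.8% of all genes tested, and the highest in 19.6%, against 25.8%. The 2 other SOD1 G93A mice held the lowest signal in 1 and 3 members. *Abcd2*, *Elovl4* and *Elovl6* remained below the NTg mice in the 2 others as well. That held for each of the 12 members with all SOD1 G93A mice below the NTg mice, *Acsl3*, *Acsl4* and *Acsl6* included.

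The acyl-CoA synthetases are an example of members whose estimates replicate 3 moved. *Acsl4*, which prefers arachidonic acid, had signals of 7.84, 7.89 and 7.69 in late-stage NTg mice and 7.003, 6.74 and 4.67 in SOD1 G93A mice. The groups were apart, and replicate 3 was over 2 log2 units below the others. The log2FC was -1.67 (standard error 0.48, 95% interval -2.70 to -0.63), just short of the threshold (limma adjusted p = 0.0518), and -0.98 without that mouse (adjusted p = 0.0786). *Acsl3*, an enzyme of lipid droplet formation, had NTg signals of 8.84, 8.33 and 8.63 and SOD1 G93A signals of 7.91, 8.05 and 6.41, a log2FC of -1.14 (adjusted p = 0.171) that was -0.63 without replicate 3. *Acsl6*, which channels docosahexaenoic acid in the brain, had NTg signals of 9.49, 9.24 and 9.54 and SOD1 G93A signals of 8.79, 8.85 and 7.51. Its log2FC was -1.03 (adjusted p = 0.095), or -0.60 without replicate 3. The dimmer *Acsl6* probe set 1437031_at had -0.52 (adjusted p = 0.252). At 90 days these 3 genes had log2FC values of -0.39, -0.092 and -0.062, and their groups overlapped. The median of the 4 Acsl genes was -1.09 at 120 days, -0.61 without replicate 3 and -0.077 at 90 days.

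Of the desaturases, *Scd1*, which makes oleic acid, had late-stage signals of 10.15, 9.58 and 9.75 in NTg mice against 8.69, 9.26 and 8.47 with the transgene. The groups did not overlap, and the log2FC of -1.02 (standard error 0.35, limma adjusted p = 0.0871) did not pass. A second, dimmer *Scd1* probe set, 1415965_at, fell by a like amount (-0.99, adjusted p = 0.0489). Without replicate 3 the brighter *Scd1* probe set had -0.85 (adjusted p = 0.219). *Scd2*, the main form in brain, had a log2FC of -0.72 (adjusted p = 0.208), or -0.35 without replicate 3. The dimmer *Scd2* probe sets 1415824_at and 1415823_at had -0.033 (adjusted p = 0.974) and 0.59 (adjusted p = 0.616). *Fads1* and *Fads2*, the desaturases of polyunsaturated fatty acids, had estimates near 0 on their brightest probe sets (-0.022 with a 95% interval of -0.65 to 0.61, and -0.033 with -0.77 to 0.70). Without replicate 3 these were 0.12 and -0.31. The dimmer *Fads2* probe sets 1443838_x_at and 1449325_at had 0.56 (adjusted p = 0.188) and 0.72 (adjusted p = 0.13). *Fads6*, a little-known relative, had -0.81 (adjusted p = 0.0852) on its brightest probe set and 0.22 (adjusted p = 0.677) on 1436355_at, and the dim *Fads2b* had 1.11 (adjusted p = 0.116).

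None of the enzymes that build palmitate was called. *Fasn* had 10.13, 10.01 and 10.20 in late-stage NTg mice and 9.86, 9.63 and 9.95 in SOD1 G93A mice, apart by a small step, with a log2FC of -0.30 (95% interval -0.82 to 0.22, adjusted p = 0.46). *Acaca*, the cytosolic carboxylase, had 0.27 (adjusted p = 0.55), or 0.16 without replicate 3. *Acacb*, the mitochondrial form that restrains fatty acid oxidation, had -0.77 (adjusted p = 0.331), where replicate 3 had 3.86 and the other 5 late-stage mice 5.96 to 6.23, and without it the log2FC was -0.046 (adjusted p = 0.949). *Acsbg1*, the bubblegum synthetase of astrocytes and neurons, had 0.15 (adjusted p = 0.787).

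The peroxins gave no call. Of the 14 Pex genes with a tested probe set 8 had a late-stage log2FC below 0. These counts include *Pex5l* (-0.42), which is not a peroxin. The median of the 14 was -0.27 at 120 days, -0.049 without replicate 3 and 0.015 at 90 days. *Pex3*, a membrane protein that starts the formation of peroxisomes, was lowest, with NTg signals of 6.38, 7.15 and 6.76 and SOD1 G93A signals of 6.04, 6.06 and 4.28. Its log2FC was -1.31 (adjusted p = 0.0965), and -0.75 without replicate 3 (adjusted p = 0.272). *Pex6*, part of the motor that recycles the import receptor, had 0.61 (adjusted p = 0.181) on its brightest probe set. Of its 4 dimmer tested probe sets 1438138_a_at rose (1.57, adjusted p = 0.0142) and the other three had -0.057, 0.13 and -0.55. *Ppara* had NTg signals of 5.85, 5.90 and 5.83 and SOD1 G93A signals of 5.18, 5.50 and 3.32. Its log2FC was -1.19 (adjusted p = 0.115), or -0.54 without replicate 3 (adjusted p = 0.299). A second, slightly dimmer *Ppara* probe set, 1457721_at, had 0.10 (adjusted p = 0.845).

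Over all 90 tested probe sets of the members 2 rose and 5 fell at 120 days, against 3.6% and 3.86% of all probe sets tested. At 90 days 0 were called, against 0.115% higher and 0.023% lower. Of the 28 members with more than 1 tested probe set 11 had probe sets of opposite sign at 120 days.

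The comparison of the genotype differences at the 2 ages called 0 of 46 members and 0% of all genes in limma. At an unadjusted p under 0.05 there were 7 members (15.2%), against 9.06% of all genes. The difference of the log2FC values, late-stage minus symptomatic, was 1.99 for *Fabp7* (adjusted p = 0.343), -1.42 for *Abcd2* (0.407), -1.28 for *Elovl6* (0.386) and -0.49 for *Elovl4* (0.754). A late-stage effect that differs from the symptomatic one was thus not shown for any member.

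Ages were set against each other after normalization over all 12 arrays, where age and array batch cannot be told apart. In NTg mice 0 members were called between 90 and 120 days, against 1.21% of genes higher and 2.27% lower at 120 days. In SOD1 G93A mice 0 were higher, against 2.49% of genes, and 3 were lower (6.52%, against 3.54%). These were *Abcd2* (log2 change -1.57, adjusted p = 0.0149), *Pex5*, the import receptor of the peroxisome (-1.15, adjusted p = 0.0384), and *Scd1* (-1.30, adjusted p = 0.0444). In NTg mice the changes were 0.024 for *Abcd2* (adjusted p = 0.977), -0.67 for *Pex5* (adjusted p = 0.236) and -0.54 for *Scd1* (adjusted p = 0.429). *Fabp7* had log2 changes of -1.34 in NTg (adjusted p = 0.0563) and 0.80 in SOD1 G93A mice (adjusted p = 0.184), so that its late-stage difference lay beside a lower NTg level as well as a higher SOD1 G93A level than at 90 days.

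Genes that work with the members were read from 6 lists, and 0 of their genes were called at 90 days. At that age 0.185% of all genes tested were called higher and 0.0402% lower. At 120 days these shares were 4.12% and 4.47%. None of 20 tested genes of mitochondrial beta-oxidation was called at 120 days (median log2FC -0.037). Of 32 other peroxisomal proteins 1 fell, *Slc27a2*, a very long-chain acyl-CoA synthetase, with NTg signals of 7.18, 7.25 and 7.22 and SOD1 G93A signals of 5.95, 5.79 and 4.30 (-1.87, limma adjusted p = 0.0193, and -1.41 without replicate 3). It kept its call there and lost it under 5 of 25 alternatives, among them leaving out NTg replicate 1 (adjusted p = 0.0514), 2 (0.0852) or 3 (0.0699). Of 11 other enzymes of lipogenesis and elongation 3 fell. These were *Thrsp*, a regulator of lipogenesis (-1.18, adjusted p = 0.0247), *Tecr*, the last enzyme of the elongation cycle (-1.04, adjusted p = 0.0415), and *Slc25a1*, the mitochondrial citrate carrier (-0.88, adjusted p = 0.0473). All of these lost their call without SOD1 G93A replicate 3, with log2FC values of -1.05, -0.90 and -0.91 (adjusted p = 0.0613, 0.109 and 0.0762). *Thrsp* and *Tecr* also lost it without late-stage NTg replicate 2 (adjusted p = 0.12 and 0.171) or 3 (0.0862 and 0.126). *Slc25a1* lost it without NTg replicate 1 (adjusted p = 0.07), 2 (0.189) or 3 (0.136). The mean of all *Thrsp* probe sets was not called (-0.54, adjusted p = 0.226).

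Of 12 genes for uptake and acyl-CoA handling 2 rose and none fell. *Lpl*, the lipase that frees fatty acids from lipoproteins, had late-stage NTg signals of 5.88, 3.47 and 4.17 and SOD1 G93A signals of 9.45, 9.91 and 8.70 (4.85, adjusted p = 0.000288), and its groups were also apart at 90 days (2.52, adjusted p = 0.128, called under 3 of 25 alternatives). *Dbi*, the acyl-CoA-binding protein, had 11.24, 10.79 and 11.12 and then 12.03, 12.28 and 12.27 (1.14, adjusted p = 0.012). Of 13 lipid droplet genes 2 rose, *Plin2*, a coat protein of droplets (1.95, adjusted p = 0.00186), and *Plin3* (0.88, adjusted p = 0.0351). *Plin3* lost its call under 10 of 25 alternatives, among them leaving out NTg replicate 1 (adjusted p = 0.0706), 2 (0.165) or 3 (0.095) and median centring (0.57, adjusted p = 0.137). At 90 days *Plin2* had NTg signals of 7.37, 7.48 and 7.48 and SOD1 G93A signals of 8.43, 8.78 and 9.06, which were apart but did not pass (1.31, adjusted p = 0.14) except under 4 of 25 alternatives. Of 14 transcription regulators *Mlxipl*, the carbohydrate response factor, rose (1.19, adjusted p = 0.0275). In the same list *Ppargc1a*, a coactivator of oxidation genes, fell (-1.41, adjusted p = 0.0266). Both calls were lost without SOD1 G93A replicate 3 (1.03 and -1.04, adjusted p = 0.0694 and 0.0715). Both were also lost without late-stage NTg replicate 1 (adjusted p = 0.0989 and 0.0806), 2 (0.0703 and 0.108) or 3 (0.0683 and 0.0537). *Mlxipl* was also apart at 90 days (1.23, adjusted p = 0.204), and called there with array weights (adjusted p = 0.0278). *Lpl* and *Plin2* are also expressed by microglia, whose markers rose at 120 days, and *Elovl4*, *Acsl4* and *Acsl6* by neurons, whose markers fell; the part of these cells in the results was not tested.

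**Figure D4:**
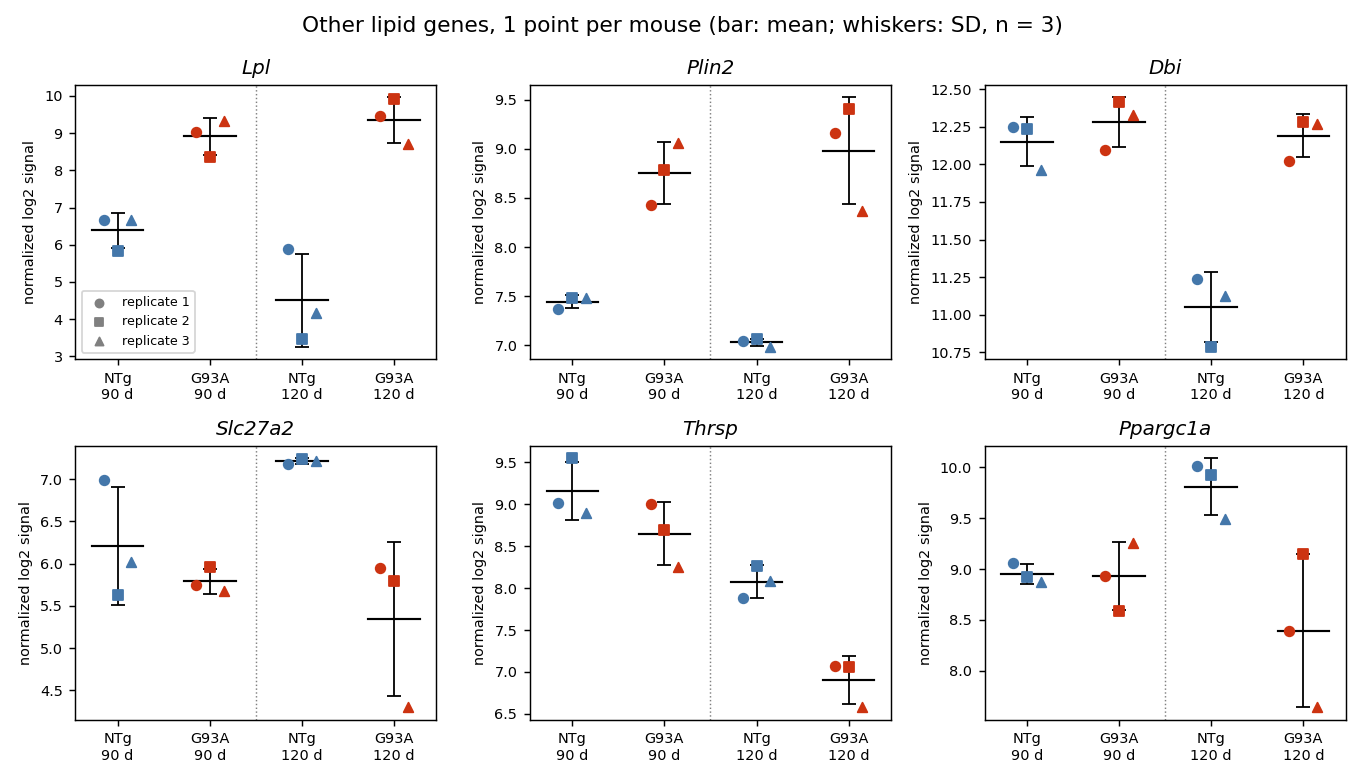
Normalized log2 signal (vertical axis, scaled separately in each panel) of 6 lipid genes outside the member families, 1 point for each mouse, with the mean as a bar and the SD as whiskers (n = 3). *Lpl*, *Plin2* and *Dbi* are higher and *Slc27a2*, *Thrsp* and *Ppargc1a* lower in all late-stage SOD1 G93A mice than in any NTg mouse of that age.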

How the data were processed

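The labels and the paper describe RNA of laser-captured lumbar astrocytes (stained with toluidine blue in the labels and for ALDH1L1 in the paper), amplified in 2 rounds and hybridised to Affymetrix Mouse Genome 430 2.0 GeneChips. The deposited values are linear signal intensities per probe set that the authors made with MAS5 (version not given in the sources used here), scaled to a 2% trimmed mean of 100 on each array. The paper's own tests used PLIER signals, not used here. With 3 arrays per group, their number limits the precision, and p-values measure the spread between mice.

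To each intensity 7 was added (the value at percentile 20 of the table) before log2. Array medians spanned 0.23 at 90 days and 0.83 at 120 days, so arrays were quantile-normalized within each age. Of the 45101 probe sets, the 64 controls stayed out. A filter kept 26132, those that exceeded the array median on 3 or more arrays, which were fitted in limma 3.58.1 (R 4.3.3) with a mean for each of 4 groups (8 residual degrees of freedom), adjusting p after Benjamini and Hochberg. The model was tested on simulated data. Symbols came from a platform annotation (34958 probe sets with 1 symbol, 932 with several, 9211 with none), promoters from RefSeq. Figures were drawn with matplotlib 3.10.9.

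Members and gene lists were chosen with earlier results of these data known. The genes named were the members called at either age, those with a fold of 2 and an unadjusted p under 0.05, the brightest tested member of each family, *Scd1*, *Scd2*, *Fasn*, *Acaca*, *Acacb*, *Ppara* and *Fads6*, and up to 3 called genes of each pathway list. Others (*Elovl1*, *Elovl2*, *Hacd1*, *Fabp3*, *Abcd4*, *Fads2* and those at the ends of a range, called between ages or called on a dimmer probe set) were picked after their values were seen. Alternatives were no normalization, quantile normalization of the 12 arrays together, median centring, other offsets and filters, an eBayes prior with trend and robust settings, a separate fit per age, a replicate block, array weights, an unmoderated test, the threshold of the study, averaging a gene's probe sets, and dropping each array in turn.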

Additional observations from a re-analysis of the deposited data

How the results depend on the processing

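At 90 days 0 members were called under every alternative run. At 120 days the 4 calls became 7 with the values as deposited, 8 with median centring, 9 with the offset at the 50th percentile, 8 with the filter at the 75th percentile, 2 with each age fitted alone, 8 with a trended and robust prior, 11 with the threshold of the study and 9 with that threshold in an unmoderated test. Of all genes 8.59% were called, and under the first 6 of these alternatives 10.8%, 16.0%, 13.3%, 17.4%, 3.24% and 12.1%. The threshold of the study took 5.53% of all genes as higher and 7.68% as lower. For that threshold in the unmoderated test no share of all genes is given here. Leaving out 1 array gave 2 to 6 members, and 2.18% to 10.4% of all genes. The count was 2 (*Fabp7* and *Abcd2*) when late-stage SOD1 G93A replicate 3 or any late-stage NTg replicate was left out. With the replicate number as a block 2 remained (*Fabp7* and *Abcd2*), and 4.69% of all genes were called. The numbers were not taken to pair the mice, since deviations of same-numbered mice correlated at -0.28 to 0.28. At 90 days SOD1 G93A replicate 1 correlated with NTg replicates 1, 2 and 3 at -0.266, -0.359 and 0.455. All correlations at 120 days lay from -0.065 to 0.058. Such a likeness across the genotypes at 90 days was not modelled, and its cause was not tested. *Fabp7* was called under all 25 alternatives for its value, *Abcd2* under all but the mean of all probe sets (-0.74, adjusted p = 0.165), *Elovl6* under 18 and *Elovl4* under 12. No called value changed sign. Median centring moved the median of all genes at 120 days from -0.083 to -0.397 and the share of rises among all calls from 48% to 18%.

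The members' median of -0.32 at 120 days was -0.63 with median centring, -0.12 without the filter, -0.16 with array weights, and -0.35 to -0.051 with 1 array left out. For the difference between ages of the genotype effects, the threshold of the study gave 5 members, and 3 in the unmoderated test. The shares of all genes for these counts are not given here. Between ages in NTg mice 1 member (2.17%) was called with the values as deposited, against 4.65% of all genes. Median centring also gave 1 (2.17%), against 4.88%. Leaving out 1 array gave 0 to 2, against 0.511% to 8.11%. In SOD1 G93A mice the 3 calls became 14 (30.4%) with median centring, against 21.6% of all genes. With 1 array left out they became 1 to 4, against 1.92% to 7.5%. The causes were not tested. Signals near the offset carry little precision, and background and present calls were not used here.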
